A study of Rattus norvegicus with 26 samples.

Results

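Liver of rats after 4 days of progressive feed restriction was compared with liver of rats fed freely. The comparison rests on 8 of the 26 arrays of the series, the 4 titled as restricted and the 4 titled as control liver at day 4, and on all 31042 probe sets that are not array controls. All 8 rats were males of the inbred Long-Evans (Turku/AB) strain, 11 to 15 weeks old at the start, housed singly with lights on for 12 h from 7 a.m. A dose of corn oil (4 mL/kg) went to each of them at the start, controls included. The restricted rats were then given 18, 12, 9 and 6 g of feed on days 0 to 3, each portion at once and in the light hours, while the controls had pelleted feed at all times. The amount of feed and the hour at which it was eaten therefore changed together and cannot be told apart. Slices of 100 to 200 mg were frozen, and each array measured total RNA of 1 rat, which is a mixture of all cells of the slice.

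The fed liver turns surplus glucose into fatty acids, packs them as triglyceride and stores glycogen. These programmes are driven by insulin and by the transcription factors SREBP-1c (gene Srebf1) and ChREBP (gene Mlxipl). When feed runs short, the liver burns fatty acids from adipose tissue under control of the fatty acid receptor PPARalpha (gene Ppara), makes ketone bodies, and makes glucose from amino acids whose nitrogen leaves as urea.

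The samples had the profile of liver. Albumin (Alb) lay between 16.09 and 16.26 on the log2 scale in all 8 arrays, and 9 of 11 measured hepatocyte markers were not called. Of tissues that a slice could carry along, the adipocyte gene Fabp4 lay between 2.89 and 3.05 and the pancreatic gene Ctrb1 between 2.36 and 2.48. Both were below the array medians of 3.16 to 3.25. Another pancreatic gene, Cela1, differed by -0.65 between the diets and was not called. Of 8 adipocyte, 8 pancreatic, 13 lymphocyte, 6 bile duct and 4 red blood cell genes 0 passed limma's test, but the mean over the red blood cell genes was high in control 2, at 1.28 above the control mean, against -0.34 to -0.50 in the other controls. Correlations between arrays over all probe sets were 0.9957 to 0.9976 among controls, 0.9953 to 0.9978 among restricted rats and 0.9897 to 0.9935 between the groups. At a mean log2 value of at least 5, the median SD was 0.128 in controls and 0.132 in restricted rats. The series lists replicates 1 and 2 of both diets together and replicates 3 and 4 together after them. Whether these are separate runs of the experiment is not given in the sources used here, so differences within each set of 2 against 2 are printed, with no test, where they differ widely. A value near the array median is close to background, and a difference from such a level is a lower bound.

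Each difference is the mean log2 value of the restricted rats less that of the controls. The test was limma's, with p-values adjusted after Benjamini and Hochberg across the array, and the words rose and fell are kept for an adjusted p under 0.05. A gene with several probe sets is shown by its brightest. Of 31042 probe sets 912 rose (2.94%) and 820 fell (2.64%), 1732 in all (5.58%). Of 14217 genes 644 rose (4.53%) and 565 fell (3.97%), together 8.5%, and 105 (0.739%) rose and 147 (1.03%) fell by at least 1, a doubling or halving. The 4 rats of a diet lay apart from the other 4 without overlap in 2255 genes (15.9%), all 1209 called genes among them. A lack of overlap in a called gene therefore adds nothing to its call. The median over all genes was 0.00827. Calls depended on brightness: among probe sets with a mean above 11, 19.5% rose and 13.1% fell, and among those with a mean below 3.5, 0.0176% rose and 0.0587% fell. Most enzymes of liver metabolism are bright, so shares of called members are to be read against the bright probe sets as well as against all genes.

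Genes that turn citrate into fatty acids fell. All 12 measured members of the pathway from citrate to palmitate, with its NADPH supply, had lower means in restricted rats; 8 fell and 0 rose, with a median of -1.30. Of 12 desaturases and elongases 5 fell and 0 rose (median -0.53), and of 15 regulators of fat synthesis 5 fell and 0 rose (median -0.15). Without any 1 array, 8 or 9 members of the first list, 4 or 5 of the second and 5 or 6 of the third fell. The mean of the first list differed by -1.48 within replicates 1 and 2 and by -2.23 within replicates 3 and 4.

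Acly, which splits cytosolic citrate to acetyl-CoA, had log2 values of 12.83, 13.80, 14.07 and 13.98 in controls 1 to 4 and 10.92, 10.33, 10.02 and 10.42 in restricted rats 1 to 4. It fell by 3.24 (SE 0.31, adjusted p = 0.00187), and the groups were far apart. Acaca, the acetyl-CoA carboxylase that makes malonyl-CoA, lay at 11.16, 11.84, 12.02 and 11.84 in controls and at 9.33, 9.30, 9.25 and 9.37 in restricted rats. Its 4 restricted values were nearly equal, while control 1 was the lowest control, and it fell by 2.40 (SE 0.17, adjusted p = 0.000661). Fasn, which builds palmitate from malonyl-CoA, went from 12.59, 13.33, 13.69 and 13.78 to 9.71, 9.15, 8.82 and 9.10 and fell by 4.15. Me1, the malic enzyme that yields NADPH, had 9.80, 10.82, 12.31 and 11.57 in controls and 6.86, 7.02, 7.04 and 6.74 in restricted rats. Controls of Me1 were spread out, restricted rats were not, and the groups did not overlap (difference -4.21, SE 0.49, adjusted p = 0.00403). Pgd of the pentose phosphate pathway, the other source of NADPH, lay at 10.31, 10.71, 11.53 and 11.20 in controls and 8.54, 8.36, 8.03 and 8.46 in restricted rats and fell by 2.59. The transketolase Tkt (-1.60), the citrate carrier Slc25a1 (-0.99) and the transaldolase Taldo1 (-0.90) were the other members called.

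Of the enzymes that modify fatty acids, Scd, which puts the first double bond into saturated chains, had 14.19, 14.56, 14.70 and 14.54 in controls and 8.08, 8.35, 7.40 and 7.01 in restricted rats. No other called gene fell by as much (-6.79, SE 0.30, adjusted p = 0.000211). Elovl6, which lengthens palmitate, went from 8.32, 9.49, 10.42 and 9.80 to 5.60, 5.10, 4.48 and 5.50, and Elovl5, which lengthens polyunsaturated chains, from 13.57, 13.66, 13.97 and 14.00 to 11.72, 11.20, 12.06 and 12.30. Neither gene had overlapping groups, which held for every called gene. Elovl6 fell by 4.34 (SE 0.46) and Elovl5 fell by 1.98 (SE 0.24). Of the desaturases of polyunsaturated fats, Fads2 fell by 1.14 (SE 0.21) and Fads1, the other called member, by 1.02 (SE 0.15). The call of Fads2 was lost without control 2, control 3, restricted 1, restricted 2 or restricted 4, each left out alone (highest adjusted p = 0.0678).

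The transcription factors of the programme fell with the enzymes. Srebf1 had 12.05, 12.05, 12.35 and 12.26 in controls and 10.82, 10.93, 10.99 and 11.36 in restricted rats, and Mlxipl had 9.25, 9.44, 9.50 and 9.39 in controls and 8.54, 8.52, 8.57 and 8.77 in restricted rats. Both were narrow in each group and fell, Srebf1 by 1.15 (SE 0.13, adjusted p = 0.00317) and Mlxipl by 0.80 (SE 0.07, adjusted p = 0.00161). Insig2, which holds SREBP precursors in the endoplasmic reticulum, fell by 1.23 (SE 0.14). The lipogenic proteins Thrsp and Mid1ip1, which act together on acetyl-CoA carboxylase, fell by 1.22 (SE 0.17) and 1.19 (SE 0.18). Nr1h3, the oxysterol receptor LXRalpha, lay at 10.91, 10.77, 11.29 and 11.02 in controls and 10.93, 10.94, 10.92 and 11.14 in restricted rats and was not called (difference -0.02, SE 0.11, adjusted p = 0.976).

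Promoters of the fatty acid enzymes were searched because they moved together. The 250 bases before the annotated start, from RefSeq (build GRCr8), were available for 11733 of the 14217 genes. The motif CCAAT, bound by the factor NF-Y, was looked for on both strands and occurred in 35.1% of these promoters, against 6 of 9 (66.7%) from the citrate to palmitate list. The promoter of Acly, chr10:85963632-85963881 (minus strand), is printed 5′ to 3′ in the direction of transcription, with the match in capitals, and the match begins 71 bases before the start.
Acly: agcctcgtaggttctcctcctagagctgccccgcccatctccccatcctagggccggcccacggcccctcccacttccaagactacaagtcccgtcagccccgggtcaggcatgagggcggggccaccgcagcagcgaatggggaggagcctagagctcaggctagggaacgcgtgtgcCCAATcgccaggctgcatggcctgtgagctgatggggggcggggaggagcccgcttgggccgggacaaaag
A match describes the letters only. Among genes that fell by at least 1 the motif was in 38.1% of promoters, and among genes that rose by at least 1 in 44.4%. Other lists held it as often, such as 16 of 23 cell cycle promoters (69.6%) and 9 of 13 of the pyruvate branch point (69.2%). The sterol response element (TCACNCCAC) and the E-box (CACGTG) were each in 0 of the 9 citrate to palmitate promoters. Of all promoters they were in 0.98% and 7.82%.

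**Figure D1:**
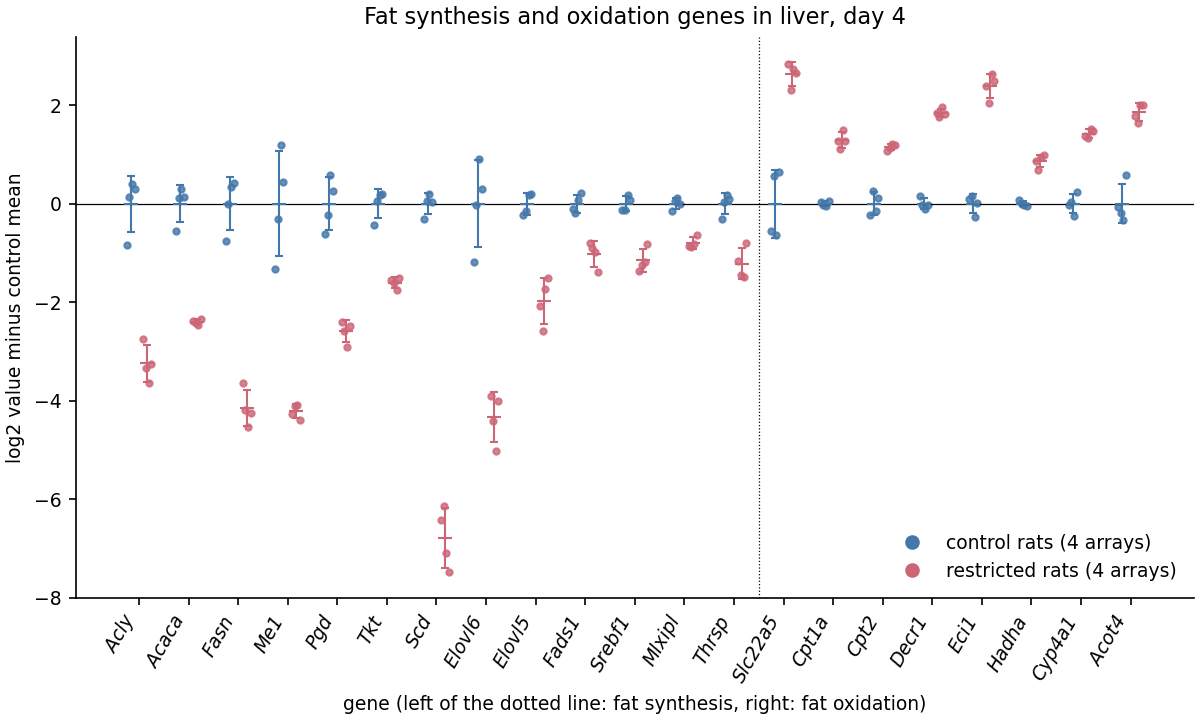
Log2 value minus the control mean (vertical axis) of 13 genes of fat synthesis, left of the dotted line, and 8 genes of fat oxidation, right of it. Points are single rats, 4 control (blue) and 4 restricted (red), and bars are the mean and SD of each group. In restricted rats Scd lies lowest, at -6.79 on average, and Slc22a5 highest, at 2.64.

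Of 25 measured genes of triglyceride and lipid droplets 3 rose and 3 fell, with a median of 0.00417. With 1 array left out 1 or 2 rose, 1 without restricted 1, control 3 or control 4, and 1 to 3 fell, 1 without control 2, 3 or 4 or restricted 1 or 2. Among all probe sets with a mean between 9 and 11, 15.1% rose and 10.8% fell, so calls both ways are not particular to this list. Pnpla3, a lipid droplet protein, had 6.81, 9.64, 11.44 and 12.08 in controls and 4.83, 4.53, 4.40 and 4.45 in restricted rats. Control 1 was far below the other controls, and the call (difference -5.44, SE 1.08, adjusted p = 0.0306) was lost without any 1 array other than control 1 (highest adjusted p = 0.0876). Plin2, which coats droplets, went from 12.00, 12.16, 11.64 and 12.14 to 9.40, 8.93, 9.65 and 10.37 and fell by 2.40 (SE 0.29), or by 1.53 as the mean over its probe sets. The phosphatidate phosphatases Lpin1 and Lpin2 moved apart: Lpin1 fell by 1.67 (SE 0.37, adjusted p = 0.0467) and Lpin2 rose by 1.03 (SE 0.22, adjusted p = 0.0404). Lpin1 was not called without any 1 array other than control 1 and restricted 4 (highest adjusted p = 0.134). Lpin2 was not called without any 1 array other than control 2 and restricted 3 (highest adjusted p = 0.120), and its mean over probe sets was 0.56.

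Of 20 lipoprotein genes 4 rose and 2 fell (1 without any 1 array other than restricted 2), and of 17 genes of fatty acid uptake and activation 2 rose and 2 fell. Angptl8, an inhibitor of lipoprotein lipase activity, had 8.49, 8.44, 9.46 and 10.23 in controls and 4.99, 5.73, 5.10 and 6.48 in restricted rats and fell by 3.58 (SE 0.50, adjusted p = 0.00771). The fatty acid binding protein Fabp5 went from 9.83, 10.44, 10.68 and 11.21 to 6.54, 6.57, 6.43 and 4.31, with restricted 4 the lowest, and fell by 4.58 (SE 0.57). Dbi, which binds acyl-CoA, fell by 1.26 (SE 0.15), while the acyl-CoA synthetases Acsl4 and Slc27a2 rose by 0.84 (SE 0.07) and 0.66 (SE 0.06). The apolipoprotein genes Apoc4 and Apoc2 and the cholesterol acyltransferase gene Lcat rose by small amounts, 0.39, 0.31 and 0.32. The groups of these 3 genes did not overlap, as in every called gene.

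Many genes that bring fatty acids into mitochondria and break them down rose. Of 10 genes of the carnitine shuttle 5 rose and 0 fell (median 0.44), and of 15 genes of mitochondrial beta-oxidation 10 rose and 0 fell (median 0.40). Of 13 genes of omega-oxidation and acyl-CoA thioesterases 8 rose and 0 fell (median 0.79), and of 15 peroxisomal genes 4 rose and 0 fell (median 0.00290). With 1 array left out these counts were 5, 9 to 10, 5 to 7 and 2 to 4.

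Slc22a5, the carnitine transporter of the plasma membrane, had 3.10, 4.21, 3.00 and 4.28 in controls, near background in controls 1 and 3, and 6.49, 5.95, 6.39 and 6.31 in restricted rats. It rose by 2.64 (SE 0.33, adjusted p = 0.00521). Cpt1a, which makes acylcarnitines at the outer membrane and is the entry step of mitochondrial oxidation, had 11.74, 11.68, 11.66 and 11.76 in controls and 12.98, 12.81, 13.22 and 12.98 in restricted rats. The spread among rats was small in both groups, and Cpt1a rose by 1.29 (SE 0.08, adjusted p = 0.000409). Its partner at the inner membrane, Cpt2, went from 8.73, 9.23, 8.81 and 9.08 to 10.04, 10.10, 10.17 and 10.15, and the carrier between them, Slc25a20, rose by 0.54 (SE 0.08). Crat, the carnitine acetyltransferase, differed by 0.93 without passing the test (adjusted p = 0.0846).

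Within the beta-oxidation list, the largest differences belonged to auxiliary enzymes of unsaturated fats. Eci1, which moves double bonds, had 9.60, 9.67, 9.24 and 9.52 in controls and 11.89, 11.56, 12.14 and 11.99 in restricted rats (difference 2.39, SE 0.14, adjusted p = 0.000381), or 1.22 as the mean over its probe sets. Decr1, which removes conjugated double bonds, had 11.65, 11.46, 11.37 and 11.46 in controls and 13.33, 13.25, 13.44 and 13.30 in restricted rats (difference 1.84, SE 0.07, adjusted p = 9.9e-05). Both subunits of the trifunctional protein of long-chain oxidation, Hadha and Hadhb, rose by 0.87 (SE 0.06) and 0.91 (SE 0.10). Hadha came to 0.31 as the mean over its probe sets. The peroxisomal counterpart of Decr1, Decr2, rose by 0.99 (SE 0.05). The peroxisomal enzymes Hsd17b4 and Ehhadh, multifunctional proteins of that pathway, rose by 0.45 (SE 0.03) and 0.81 (SE 0.17), and Phyh, which starts the breakdown of phytanic acid, by 0.67 (SE 0.12). Ehhadh was not called without any 1 array other than control 1 and restricted 4 (highest adjusted p = 0.105), nor Phyh without restricted 1, restricted 2 or control 3 (highest adjusted p = 0.0653).

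The omega-hydroxylases of the Cyp4a family, classic PPARalpha targets in rodent liver, also rose. Cyp4a1 had 11.90, 11.95, 11.68 and 12.16 in controls and 13.30, 13.25, 13.43 and 13.41 in restricted rats and rose by 1.42 (SE 0.10, adjusted p = 0.000597). Cyp4a3 rose by 1.39 (SE 0.15) and Cyp4a8 by 1.82 (SE 0.37), the latter with restricted 4 the lowest of its group, at 6.11. Cyp4a8 was not called without any 1 array other than control 2 and restricted 4 (highest adjusted p = 0.105). The thioesterase Acot4, which frees acids from acyl-CoA in peroxisomes, had 5.80, 5.69, 5.54 and 6.45 in controls and 7.65, 7.50, 7.88 and 7.88 in restricted rats and rose by 1.86 (SE 0.20). These genes are closely related within their families, and probes may measure more than 1 of them. Ppara itself was near background, at 3.15, 3.50, 3.52 and 3.67 in controls and 4.37, 3.52, 3.52 and 4.47 in restricted rats, and was not called (adjusted p = 0.462).

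The motif AGGTCA, which PPAR and other nuclear receptors bind, was searched on both strands because many of its known targets rose. It was in 11.3% of all promoters, in 11.1% of those of genes that rose by at least 1 and in 10.3% of those of genes that fell by at least 1. Among mitochondrial beta-oxidation genes 3 of 12 promoters held it (25.0%), and among omega-oxidation and thioesterase genes 3 of 11 (27.3%). Of the carnitine shuttle promoters 0 of 9 held it. In the respiratory chain list, with 0 called genes, 6 of 21 promoters did (28.6%), so the share is not particular to lists that rose. The promoters of Eci1, chr10:13961000-13961249 (plus strand), and Cyp4a3, chr5:134352237-134352486 (minus strand), from RefSeq (GRCr8), hold 1 match each, in capitals, 94 and 105 bases before the start.
Eci1: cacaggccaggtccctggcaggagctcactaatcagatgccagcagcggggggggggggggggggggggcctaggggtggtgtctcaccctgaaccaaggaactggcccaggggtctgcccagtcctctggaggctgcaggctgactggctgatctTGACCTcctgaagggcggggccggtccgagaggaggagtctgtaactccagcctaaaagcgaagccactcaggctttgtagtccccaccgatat
Cyp4a3: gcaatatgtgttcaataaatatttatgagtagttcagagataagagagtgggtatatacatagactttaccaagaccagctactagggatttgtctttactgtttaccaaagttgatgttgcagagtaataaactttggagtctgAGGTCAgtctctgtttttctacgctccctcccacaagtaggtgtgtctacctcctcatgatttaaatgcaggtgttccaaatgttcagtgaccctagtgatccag
In Eci1 the match lies on the opposite strand, as TGACCT.

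Ketone body genes and their regulators showed 3 rises and 1 fall among 10 (2 falls without restricted 2, control 3 or restricted 4). Bdh2, a cytosolic hydroxybutyrate dehydrogenase, had 4.63, 4.14, 4.71 and 4.43 in controls and 7.61, 7.90, 7.56 and 6.98 in restricted rats and rose by 3.04 (SE 0.21, adjusted p = 0.000590). Acat1, the mitochondrial thiolase of ketone body and isoleucine metabolism, rose by 0.51 (SE 0.08). The monocarboxylate carriers moved apart: Slc16a1 had 10.83, 10.64, 10.47 and 10.65 in controls and 9.26, 9.37, 9.56 and 9.66 in restricted rats and fell by 1.19 (SE 0.11), and Slc16a7 rose by 0.85 (SE 0.10). Slc16a1 came to -0.59 as the mean over its probe sets. Fgf21, the fasting hormone of liver, was at 4.74, 4.52, 3.90 and 4.68 in controls and 4.04, 4.07, 4.08 and 4.09 in restricted rats and was not called (adjusted p = 0.368).

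Glycolysis and glucose entry fell in 7 of 22 members and rose in 0 (median -0.02), or in 3 to 7 with 1 array left out. Pklr, the liver pyruvate kinase, had 12.41, 12.99, 13.13 and 12.83 in controls and 9.62, 8.93, 9.49 and 10.08 in restricted rats and fell by 3.31 (SE 0.26, adjusted p = 0.000871). Gckr, a regulatory protein of hepatic glucose use, was even in controls, at 10.99, 10.78, 10.81 and 10.93, and spread in restricted rats, at 8.06, 6.61, 8.65 and 9.08. Its fall by 2.78 (SE 0.49, adjusted p = 0.0199) was not called without any 1 of the controls or restricted 1 (highest adjusted p = 0.0671). The fructose carrier Slc2a5 fell by 2.53 (SE 0.41), and Khk, the fructokinase, by 0.55 (SE 0.08). The other called members, Pgk1, Pgam1 and Eno1 of lower glycolysis, fell by 0.39, 0.37 and 0.34.

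In glycogen metabolism 3 of 17 genes fell and 0 rose. Ppp1r3b, which targets phosphatase to glycogen and activates its synthesis, went from 11.96, 12.60, 13.02 and 12.89 to 11.20, 11.02, 11.19 and 11.41 and fell by 1.41 (SE 0.23, adjusted p = 0.0140). Pygl, the phosphorylase that breaks glycogen down, had 12.59, 12.82, 12.77 and 12.63 in controls and 11.41, 11.23, 11.61 and 11.69 in restricted rats and fell by 1.21 (SE 0.11), and the branching enzyme Gbe1 fell by 0.96 (SE 0.08). The called genes thus belonged to both synthesis and breakdown.

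At the pyruvate branch point 5 of 15 genes fell and 1 rose (median -0.32), and 2 fell without control 3, control 4 or restricted 3. None rose without control 1 or 2 or restricted 1, 2 or 3. Pdhb, a subunit of pyruvate dehydrogenase, had 12.03, 12.59, 12.53 and 12.61 in controls and 11.17, 10.99, 11.28 and 11.53 in restricted rats and fell by 1.19 (SE 0.16, adjusted p = 0.00680). The kinases that switch the complex off, Pdk1 and Pdk2, fell too, by 1.08 (SE 0.12) and 0.32 (SE 0.06). Pdk4, the kinase known to rise on fasting, lay at 8.31, 8.29, 8.62 and 8.45 in controls and at 9.53, 10.08, 9.94 and 8.49 in restricted rats. Restricted 1 to 3 were above every control and restricted 4 was not, and Pdk4 was not called (adjusted p = 0.136). The subunits of the mitochondrial pyruvate carrier moved apart, Mpc2 by 0.46 and Mpc1 by -0.43. Mpc2 was not called without any 1 array other than controls 3 and 4 (highest adjusted p = 0.112), nor Mpc1 without control 2, 3 or 4 or restricted 2 or 3 (highest adjusted p = 0.0700).

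Genes of glucose production were nearly level, with 2 of 15 risen (1 without any 1 array other than control 4), 1 fallen (0 without control 3, 2 without restricted 2) and a median of -0.00848. Pck1, the rate-limiting enzyme, lay at 14.09, 14.26, 13.82 and 14.05 in controls and at 14.23, 14.32, 14.20 and 14.40 in restricted rats, and the groups overlapped (difference 0.23, SE 0.09, adjusted p = 0.296). Ppargc1a, a coactivator of this programme and of mitochondrial genes, had 4.23, 4.14, 4.35 and 4.94 in controls and 5.13, 5.17, 5.34 and 5.42 in restricted rats, and rose by 0.85 (SE 0.17, adjusted p = 0.0351). The call of Ppargc1a was lost without any 1 array other than control 4 (highest adjusted p = 0.102), and its mean over probe sets was 0.45. Gpd1, the glycerol phosphate dehydrogenase, fell by 0.66 (SE 0.11), with an adjusted p of 0.0501 without control 3. In the citric acid cycle 3 of 16 genes rose and 1 fell, led by Aco1 (0.51) and the citrate synthase Cs (-0.48). Aco1 was not called without restricted 1, 2 or 3 or control 3 (highest adjusted p = 0.0609). The respiratory chain and ATP synthase gave 0 calls in 24 genes by limma with a median of 0.01, its largest differences being 0.16 for Ndufa5 and -0.16 for Atp5f1a.

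Many genes of amino acid breakdown rose. Of 14 genes of transamination and deamination 7 rose and 0 fell (median 0.47), of 17 genes of branched-chain amino acid breakdown 7 rose and 1 fell (median 0.21), and of 11 genes of the urea cycle and ammonia handling 3 rose and 0 fell (median 0.12). With 1 array left out 5 to 7, 6 to 7 and 3 members of these lists rose. With the replicate number as a block 1, 6 and 2 rose, and Sds, Got1, Gpt and Prodh were not called. Sds, which deaminates serine to pyruvate, had 10.39, 8.90, 9.48 and 9.06 in controls and 12.05, 12.92, 12.83 and 13.01 in restricted rats. Control 1 was the highest control, the groups did not overlap, and Sds rose by 3.25 (SE 0.36, adjusted p = 0.00355). The aminotransferases Got1 and Gpt rose by 1.20 (SE 0.19) and 1.13 (SE 0.15), and Prodh, which starts proline breakdown, by 0.91 (SE 0.11), or 0.46 as the mean over its probe sets. Asl, which releases arginine in the urea cycle, had 11.58, 11.57, 11.48 and 11.52 in controls and 12.83, 13.08, 13.26 and 13.07 in restricted rats and rose by 1.52 (SE 0.08, adjusted p = 0.000348). The liver glutaminase Gls2 rose by 0.94 (SE 0.12) and the ornithine carrier Slc25a15 by 0.45 (SE 0.05).

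For branched-chain amino acids, an inhibitor and its target moved in opposite directions. Bckdk, the kinase that inactivates the branched-chain ketoacid dehydrogenase, had 8.96, 9.44, 9.34 and 9.62 in controls and 7.89, 7.62, 7.64 and 8.04 in restricted rats and fell by 1.54 (SE 0.16, adjusted p = 0.00245). The core subunit of that dehydrogenase, Dbt, had 8.92, 8.86, 8.96 and 9.01 in controls and 9.84, 10.23, 9.67 and 9.85 in restricted rats and rose by 0.96 (SE 0.11), or 0.49 as the mean over its probe sets. Its subunit Bckdha rose by 0.41 (SE 0.04). Later steps rose too, with Acadsb at 0.78 (SE 0.09) and Mccc1 at 0.55 (SE 0.09).

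Sulfur and methyl group metabolism split into 4 rises and 4 falls among 18 genes. Csad, which makes taurine from cysteine sulfinate, had 9.37, 9.24, 9.68 and 8.70 in controls and 5.71, 5.80, 5.62 and 6.65 in restricted rats and fell by 3.30 (SE 0.29, adjusted p = 0.00137). The taurine transporter Slc6a6 went from 8.98, 7.35, 8.00 and 8.11 to 4.74, 4.68, 4.24 and 4.80 and fell by 3.50 (SE 0.33, adjusted p = 0.00172). Bhmt, which remethylates homocysteine with betaine, fell by 1.47 (SE 0.21). Ahcy, which forms homocysteine, and Cbs, which passes it on towards cysteine, rose by 0.68 (SE 0.09) and 0.65 (SE 0.08).

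Of 17 amino acid transporters 4 rose and 1 fell. Slc1a2, a glutamate transporter that marks the pericentral zone, was at background in controls, at 2.32, 2.41, 2.37 and 2.32, and had 6.89, 7.32, 5.71 and 6.67 in restricted rats. Its rise by 4.29 (SE 0.31, adjusted p = 0.000657) is a lower bound, and it came to 2.15 as the mean over its probe sets. Slc38a4, a system A transporter, rose by 0.94 (SE 0.05), from 13.18, 12.95, 13.04 and 13.04 to 13.97, 14.07, 13.95 and 14.00. Slc43a1 rose by 1.05 (SE 0.24) and was not called without any 1 array other than control 1 (highest adjusted p = 0.136). Kmo and Kynu of tryptophan breakdown moved apart. Kmo rose by 1.02 (SE 0.05, adjusted p = 0.000348) and Kynu fell by 1.61 (SE 0.26, adjusted p = 0.0131). The serine hydroxymethyltransferases also moved apart, the cytosolic Shmt1 by 0.65 (SE 0.04) and the mitochondrial Shmt2 by -0.64 (SE 0.13). Shmt2 was not called without any 1 array other than restricted 4, the highest of its group (highest adjusted p = 0.0916).

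Cholesterol synthesis showed large mean differences, few calls and a spread among restricted rats. Of 8 genes from acetyl-CoA to squalene 0 passed limma's test (median -0.72), and of 10 from squalene to cholesterol 2 fell (median -0.86), or 1 without control 3, control 4 or restricted 3. As a mean over the first list, minus the control mean, restricted 1 and 2 lay at -0.20 and -0.24 and restricted 3 and 4 at -0.97 and -1.24. Over the second list they lay at -0.23 and -0.43 and at -1.13 and -1.38, against controls of -0.44, -0.07, 0.35 and 0.16; controls of the first list lay at -0.35, -0.13, 0.39 and 0.08. Restricted 1 and 2 thus lay among the controls and restricted 3 and 4 below them, along the line between the replicates that the series lists apart. Within replicates 1 and 2 the diets differed by 0.02 on the first list and -0.08 on the second, and within replicates 3 and 4 by -1.34 and -1.51. The part of a separate run in this split was not tested. Fdps, which makes farnesyl diphosphate, had 12.05, 12.62, 12.90 and 12.90 in controls and 11.92, 11.53, 10.73 and 10.24 in restricted rats (adjusted p = 0.0797). Dhcr7, which makes cholesterol from its last precursor, had 10.88, 10.36, 11.54 and 11.18 in controls and 9.73, 9.28, 8.79 and 8.36 in restricted rats and fell by 1.95 (SE 0.35, adjusted p = 0.0216). It was not called without control 1, 3 or 4 or restricted 3 (highest adjusted p = 0.0660). Nsdhl, a demethylating enzyme of the late pathway, was even among restricted rats, at 11.29, 10.93, 11.18 and 11.20 against 11.68, 11.95, 12.23 and 12.12 in controls, and fell by 0.85 (SE 0.13, adjusted p = 0.0117). CCAAT was in 5 of 6 promoters of the first list and 7 of 9 of the second. The promoter of Nsdhl, chrX:155817110-155817359 (plus strand), is shown because it holds 5 matches on either strand, in capitals, beginning 208, 128, 119, 91 and 65 bases before the start.
Nsdhl: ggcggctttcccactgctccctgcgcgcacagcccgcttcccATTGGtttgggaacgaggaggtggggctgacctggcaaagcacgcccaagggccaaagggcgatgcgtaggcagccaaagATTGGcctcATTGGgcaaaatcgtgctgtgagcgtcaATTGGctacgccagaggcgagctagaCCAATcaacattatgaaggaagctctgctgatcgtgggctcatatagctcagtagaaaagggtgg
The same letters occur in 35.1% of all promoters searched.

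The sterol exporter formed by Abcg5 and Abcg8 rose in both subunits. Abcg5 had 5.80, 6.23, 4.77 and 6.09 in controls and 9.33, 8.95, 9.22 and 9.27 in restricted rats and rose by 3.47 (SE 0.31, adjusted p = 0.00147). Abcg8 had 4.63, 5.05, 4.33 and 4.54 in controls and 6.36, 5.78, 5.91 and 5.98 in restricted rats and rose by 1.37 (SE 0.18, adjusted p = 0.00583). Cyp7a1, the rate-limiting enzyme of bile acid synthesis, varied from rat to rat, at 11.27, 12.17, 13.10 and 11.80 in controls and 9.63, 10.94, 10.32 and 12.16 in restricted rats, and was not called (adjusted p = 0.372). Hsd3b7 of the same pathway fell by 0.71 (SE 0.11) and the bile salt export pump Abcb11 by 0.71 (SE 0.06). The organic anion transporter Slc22a8 went from 10.98, 10.08, 10.81 and 10.73 to 7.80, 7.35, 6.40 and 8.75 and fell by 3.08 (SE 0.48), and the efflux pump Abcb1a rose by 1.60 (SE 0.20).

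**Figure D2:**
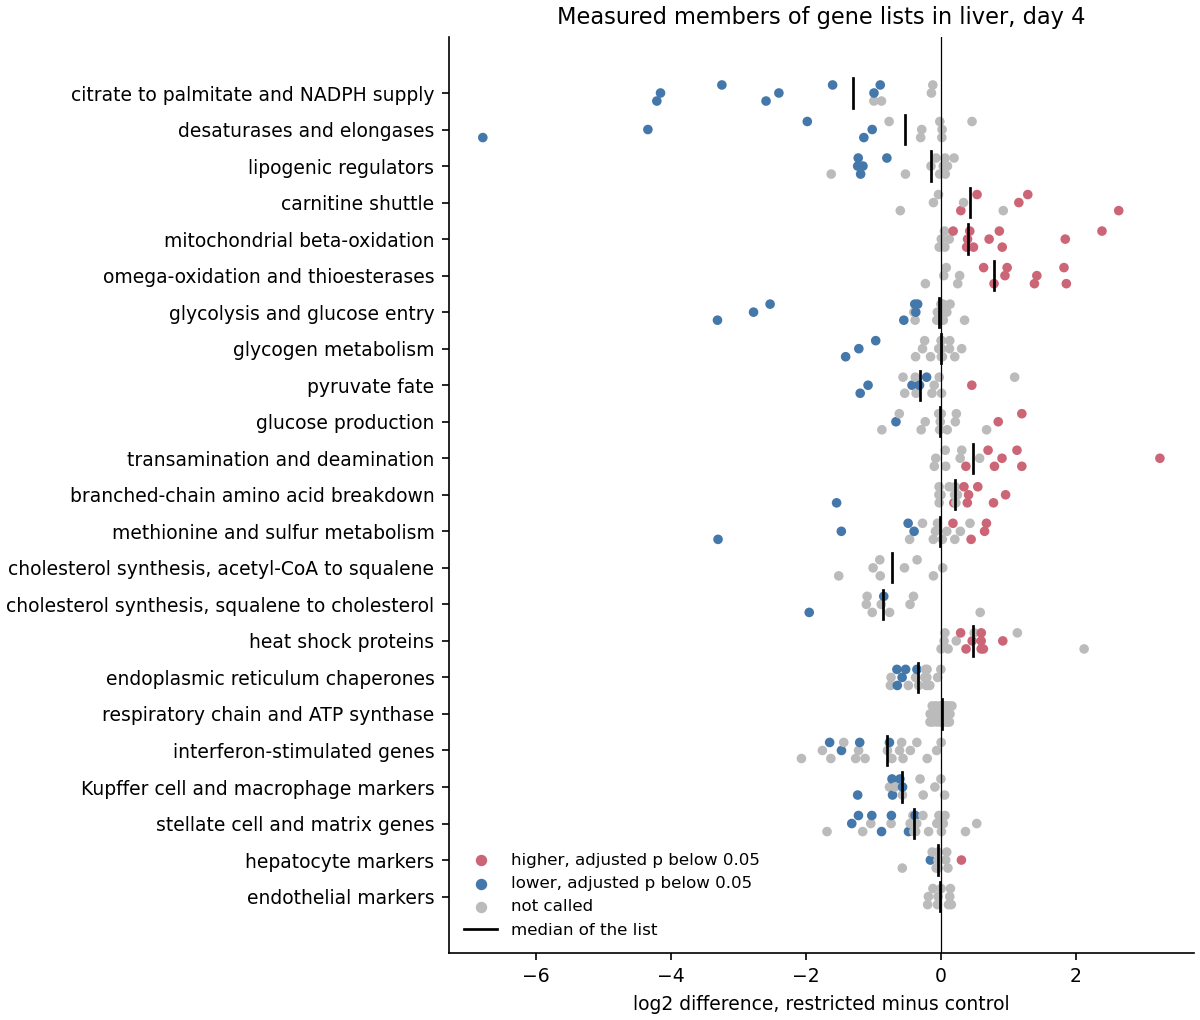
Log2 difference, restricted minus control (horizontal axis), of each measured member of the gene lists named on the vertical axis. Red and blue points rose and fell at an adjusted p below 0.05, grey points were not called, and the black bar is the median of the list. The citrate to palmitate list lies wholly left of 0, with a median of -1.30. Desaturases with elongases and lipogenic regulators have members on both sides. Most members of omega-oxidation with thioesterases lie right of 0, with a median of 0.79.

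Heat shock proteins, the chaperones of cytosol and mitochondria, and chaperones of the endoplasmic reticulum went opposite ways. All 16 measured heat shock genes had higher means in restricted rats; 8 rose, 0 fell, and the median was 0.48 (6 to 9 rose with 1 array left out). Of 18 chaperones of the endoplasmic reticulum 17 had lower means; 5 fell, 0 rose, and the median was -0.34 (2 to 8 fell with 1 array left out). Hsph1, a cochaperone of Hsp70, had 8.07, 8.47, 8.45 and 8.53 in controls, control 1 being the lowest, and 9.23, 9.37, 9.13 and 9.46 in restricted rats, and rose by 0.92 (SE 0.12, adjusted p = 0.00541). Hsp90ab1, the constitutive Hsp90, had 13.04, 13.12, 13.34 and 13.31 in controls and 13.76, 13.84, 13.82 and 13.80 in restricted rats and rose by 0.60 (SE 0.07). Its cochaperone Chordc1 rose by 0.63 (SE 0.05), and Dnajb1, which stimulates Hsp70, by 0.60 (SE 0.06). The inducible Hsp70 gene Hspa1a was at 3.76, 3.77, 3.17 and 3.77 in controls and 6.86, 6.94, 4.98 and 4.17 in restricted rats, and Hspb1, a small heat shock protein, at 6.46, 6.15, 6.51 and 6.62 in controls and 8.09, 8.34, 7.25 and 6.61 in restricted rats. Both were high in restricted 1 and 2, lower in restricted 3 and 4, and not called. This is again the line between the replicates listed apart: the diets differed by 3.14 for Hspa1a and 1.91 for Hspb1 within replicates 1 and 2, and by 1.11 and 0.36 within replicates 3 and 4. The mean over the heat shock list differed by 0.72 and 0.37. The element that heat shock factor binds was searched as GAANNTTC, which reads the same on both strands. It was in 4.97% of all promoters and in 9 of the 14 heat shock promoters found (64.3%). The promoters of Hsph1, chr12:10427118-10427367 (plus strand), Dnajb1, chr19:41431142-41431391 (minus strand), and Dnaja1, chr5:60638154-60638403 (plus strand), 3 called genes with 1 match each, show it in capitals 31, 11 and 181 bases before the start (RefSeq, GRCr8).
Hsph1: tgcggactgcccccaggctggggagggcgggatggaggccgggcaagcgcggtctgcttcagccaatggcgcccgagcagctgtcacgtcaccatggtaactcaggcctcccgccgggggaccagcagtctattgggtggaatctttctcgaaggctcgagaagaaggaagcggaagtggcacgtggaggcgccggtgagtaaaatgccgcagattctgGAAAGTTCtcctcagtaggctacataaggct
Dnajb1: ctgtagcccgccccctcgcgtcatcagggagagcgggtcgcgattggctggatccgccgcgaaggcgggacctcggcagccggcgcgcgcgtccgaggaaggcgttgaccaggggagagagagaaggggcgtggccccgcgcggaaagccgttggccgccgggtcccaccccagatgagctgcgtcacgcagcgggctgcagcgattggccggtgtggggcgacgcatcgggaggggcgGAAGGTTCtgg
Dnaja1: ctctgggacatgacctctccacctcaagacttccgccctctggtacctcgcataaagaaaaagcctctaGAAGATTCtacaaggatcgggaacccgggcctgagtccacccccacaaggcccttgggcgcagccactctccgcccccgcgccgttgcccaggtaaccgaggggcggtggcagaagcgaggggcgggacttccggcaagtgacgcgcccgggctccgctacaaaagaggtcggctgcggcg
Dnaja1, another partner of Hsp70, rose by 0.46 (SE 0.06).

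In the endoplasmic reticulum, the disulfide isomerase Pdia4 had 11.31, 11.45, 11.55 and 11.71 in controls and 10.78, 10.66, 11.04 and 10.94 in restricted rats and fell by 0.65 (SE 0.11, adjusted p = 0.0157). The lectin chaperone Calr went from 12.81, 12.77, 12.58 and 12.94 to 12.32, 12.01, 12.20 and 12.26 and fell by 0.57 (SE 0.09). Dnajb11 and Pdia6 fell by 0.65 (SE 0.12) and 0.52 (SE 0.08). Pdia4 was not called without restricted 1 or control 3 (highest adjusted p = 0.0566), nor Dnajb11 without control 2 or 4 or restricted 1 or 3 (highest adjusted p = 0.0790). In the disposal of misfolded proteins Derl1 and Derl2 fell, by 0.43 (SE 0.06) and 0.51 (SE 0.09). Sel1l and Os9 of the same machinery rose, by 0.30 and 0.42. The calls of Derl2 (highest adjusted p = 0.0735, lost without 5 of the arrays, all but control 1, restricted 2 and restricted 4), Os9 (0.125, all but controls 1 and 2) and Sel1l (0.0863, all but control 2 and restricted 4) each depended on single arrays. Means over all probe sets gave -0.92 for Derl2 and 0.21 for Os9.

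As a list, interferon-stimulated genes had lower means in every restricted rat. Of 21 measured 20 had lower means, 4 fell and 0 rose, and the median was -0.79. The mean over the list, minus the control mean, was 0.13, 0.30, -0.27 and -0.17 in controls and -0.89, -1.50, -0.79 and -0.61 in restricted rats. The groups did not overlap, and restricted 2 was the lowest. The list mean differed by -1.42 within replicates 1 and 2 and by -0.48 within replicates 3 and 4. Psmb9, a subunit of the immunoproteasome, had 10.34, 10.07, 10.02 and 9.80 in controls and 8.59, 7.60, 8.63 and 8.82 in restricted rats. Psmb8, another subunit, had 9.84, 9.78, 9.68 and 9.80 in controls and 9.13, 8.84, 8.94 and 9.15 in restricted rats. They fell by 1.65 (SE 0.27, adjusted p = 0.0149) and 0.76 (SE 0.08, adjusted p = 0.00225). Ifit2, an antiviral RNA-binding protein, had 7.66, 7.84, 7.77 and 7.83 in controls and 6.31, 6.15, 6.81 and 7.03 in restricted rats and fell by 1.20 (SE 0.19, adjusted p = 0.0131). The GTPase Gbp2 fell by 1.47 (SE 0.29, adjusted p = 0.0289), a call lost without any 1 of the controls or restricted 1 (highest adjusted p = 0.0928). Macrophage markers, described next, fell beside these genes, and their part in the result was not tested. In bulk tissue fewer cells of a type and less RNA per cell cannot be told apart.

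Markers of Kupffer cells, the macrophages of liver, were lower: 5 of 13 fell and 0 rose, the median was -0.57, and 3 to 7 fell with 1 array left out. The list mean was -0.70, -0.36, -0.33 and -0.58 in restricted rats 1 to 4 against -0.07 to 0.09 in controls, with no overlap. Lyz2, the macrophage lysozyme, had 10.35, 10.34, 10.44 and 10.47 in controls and 9.20, 9.36, 9.03 and 9.08 in restricted rats and fell by 1.23 (SE 0.07, adjusted p = 0.000381). Clec4f, a lectin of Kupffer cells, had 11.05, 10.75, 10.77 and 10.69 in controls and 9.82, 10.11, 10.37 and 10.07 in restricted rats and fell by 0.72 (SE 0.13), with an adjusted p of 0.0551 without control 3. The 3 chains of complement C1q moved together, C1qa by -0.61, C1qb by -0.57 and C1qc by -0.72. Of 26 genes of stellate cells and matrix 7 fell and 0 rose (median -0.40), and 2 to 5 fell with 1 array left out. The mean of that list was -0.30, -0.41, -0.46 and -0.75 in restricted rats, below all controls. Col3a1, a fibrillar collagen, had 10.81, 10.84, 10.56 and 10.50 in controls and 9.85, 9.49, 9.37 and 8.72 in restricted rats and fell by 1.32 (SE 0.23, adjusted p = 0.0177). It was not called without control 2, control 3 or restricted 3 (highest adjusted p = 0.0521). Col4a1 of the basement membrane fell by 0.88 (SE 0.19), a call lost without any 1 array other than restricted 3 and 4 (highest adjusted p = 0.132). Col6a3 and Col14a1 fell by 1.22 and 1.02, -0.61 and -0.51 as means over their probe sets, and were lost without any 1 array other than restricted 1 (highest adjusted p = 0.0918) and without any 1 other than controls 2 and 4 (0.104). Endothelial markers gave 0 calls in 10 by limma with a median of -0.02, and hepatocyte markers had a median of -0.04.

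**Figure D3:**
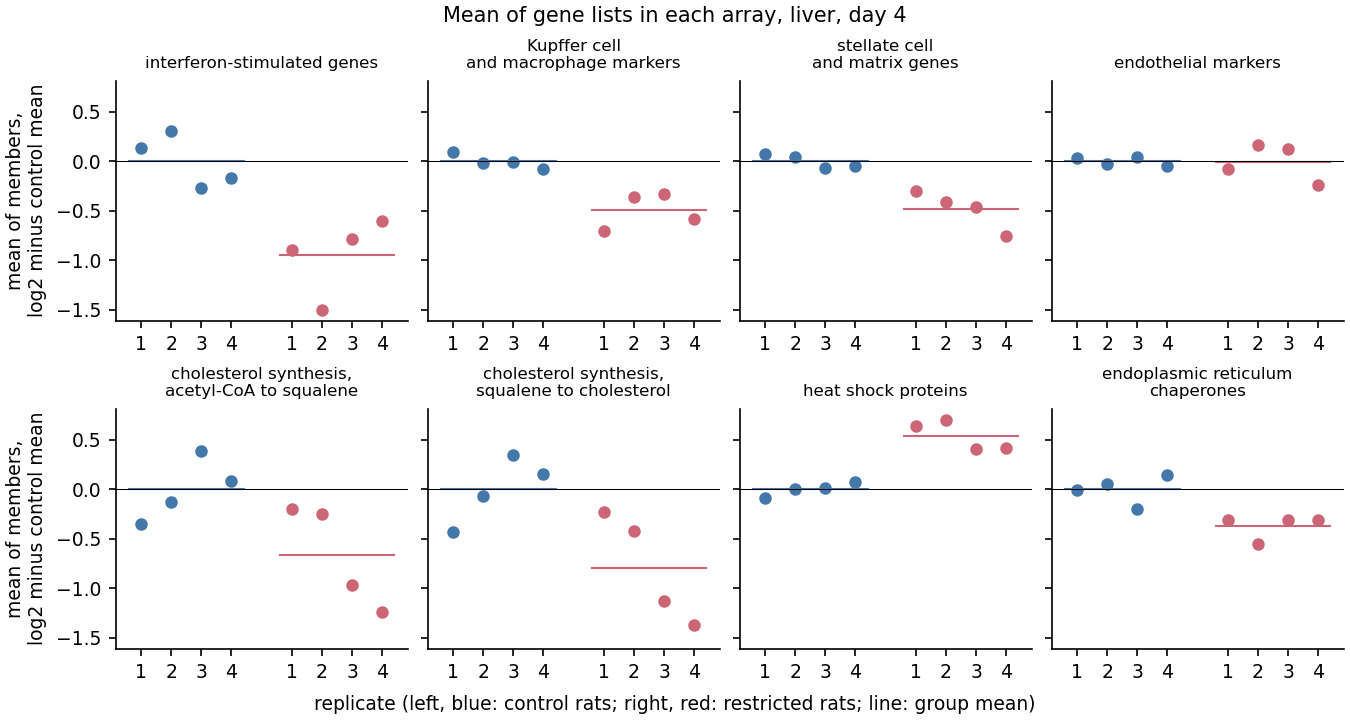
Mean over the members of 8 gene lists in each array, as log2 value minus the control mean (vertical axis), for control rats (blue, left) and restricted rats (red, right) by replicate number, with a line at each group mean. Interferon, macrophage and matrix lists are below 0 in all 4 restricted rats, endothelial markers are on both sides of it, and the cholesterol lists are lowest in restricted 3 and 4.

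Of 11 genes of growth hormone signalling 3 rose and 2 fell, of 14 sex-biased liver genes 1 rose and 3 fell, and of 12 genes of insulin-like growth factors 2 rose and 1 fell. With 1 array left out, 2 to 3 and 0 to 3 of the first list, 1 to 2 and 2 to 5 of the second, and 0 to 2 and 0 to 1 of the third rose and fell. The lowest of these were 0 falls in the first list without control 4, 2 falls in the second without restricted 1 or control 4, and 0 rises in the third without control 4. Cux2, a repressor that is female-biased in rodent liver, had 4.14, 4.62, 4.18 and 4.97 in controls and 8.35, 8.17, 8.94 and 8.78 in restricted rats and rose by 4.08 (SE 0.24, adjusted p = 0.000381). Trim24, a nuclear receptor cofactor, had 4.80, 4.86, 4.93 and 5.21 in controls and 8.23, 7.63, 9.01 and 7.94 in restricted rats and rose by 3.25 (SE 0.28). Prlr, the prolactin receptor, had 3.69, 3.78, 3.18 and 5.92 in controls and 7.76, 7.05, 10.01 and 7.20 in restricted rats, a wide spread in both groups. It rose by 3.86 (SE 0.83, adjusted p = 0.0420) and was not called without any 1 array other than control 4 (highest adjusted p = 0.119). Ghr, the receptor of growth hormone, fell by 0.45 (SE 0.08), and Stat5b, which carries its signal to the nucleus, fell by 0.84 (SE 0.19). Stat5b was not called without any 1 array other than restricted 4 (highest adjusted p = 0.124). Of male-predominant enzymes, Cyp2c11 had 14.42, 14.45, 14.40 and 14.46 in controls and 14.04, 14.03, 13.83 and 14.03 in restricted rats and fell by 0.45 (SE 0.05, adjusted p = 0.00348). Igf1 fell by 0.36 (SE 0.07), -0.19 as the mean over its probe sets, and was not called without controls 1 or 4 or restricted 1, 2 or 4 (highest adjusted p = 0.0789).

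Of the binding proteins of insulin-like growth factors, Igfbp1 and Igfbp2 rose. Igfbp1, which insulin suppresses, had 5.62, 7.62, 7.37 and 6.21 in controls and 9.19, 9.75, 9.17 and 10.21 in restricted rats and rose by 2.87 (SE 0.49, adjusted p = 0.0169), with an adjusted p of 0.0525 without control 4. Igfbp2 had 8.78, 7.96, 8.42 and 8.43 in controls and 11.23, 11.03, 11.04 and 9.45 in restricted rats, restricted 4 being well below the others, and rose by 2.29 (SE 0.41, adjusted p = 0.0199). Irs2, an adaptor of the insulin receptor, had 7.32, 5.27, 5.37 and 5.11 in controls and 9.40, 9.36, 9.13 and 7.92 in restricted rats. Control 1 stood above the other controls and restricted 4 below the other restricted rats, and Irs2 rose by 3.18 (SE 0.57, adjusted p = 0.0204). Irs2 (highest adjusted p = 0.0712) was not called without any 1 array other than control 1 and restricted 4, and the same held for Igfbp2 (0.0644). Foxo1, which insulin restrains, was at 5.94, 6.88, 5.77 and 6.96 in controls and 5.85, 5.73, 5.55 and 5.95 in restricted rats and was not called (adjusted p = 0.413).

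Called genes of the daily clock fell in its activating limb and rose in its repressing limb. Of 5 genes of the activating limb 2 fell and 0 rose, of 10 of the repressing limb 2 rose and 0 fell, and of 7 outputs 1 rose and 0 fell. With 1 array left out 1 or 2 of the first limb fell, 0 to 2 of the second rose and 0 to 3 outputs rose. The repressing limb kept no rise without restricted 1 or 3 or control 3 or 4, and the outputs none without these arrays or restricted 4. Npas2, a partner of BMAL1, had 5.70, 3.78, 6.20 and 5.62 in controls and was at background in restricted rats, at 2.37, 2.40, 2.45 and 2.46, so that its fall by 2.90 (SE 0.48, adjusted p = 0.0158) is a lower bound. It was not called without restricted 1 or control 4 (highest adjusted p = 0.0551). Clock fell by 0.83 (SE 0.13), -0.49 as the mean over its probe sets. Of the repressors Nfil3 had 5.85, 4.93, 5.49 and 5.15 in controls and 8.12, 8.28, 7.53 and 6.29 in restricted rats and Per2 6.85, 8.20, 7.88 and 7.85 in controls and 9.01, 9.25, 8.63 and 9.30 in restricted rats. They rose by 2.20 (SE 0.45, adjusted p = 0.0345) and 1.35 (SE 0.30, adjusted p = 0.0468), and Per2 came to 0.69 as the mean over its probe sets. The output factor Tef rose by 1.20 (SE 0.24, adjusted p = 0.0330). Calls of Nfil3 were lost without any 1 array other than restricted 4 (highest adjusted p = 0.103), those of Per2 (0.121) and Tef (0.0993) without any 1 other than controls 1 and 2. Control 1 had the lowest control value of Per2, Tef and Dbp, at 6.85, 7.01 and 8.05. The hour at which rats were killed is not given in the sources used here, and phase and level of a rhythm cannot be told apart.

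Some genes differed more between rats of 1 diet than between the diets, and the rats split in a like way for most of those given here. Cish, which growth hormone induces, had 9.83, 3.32, 3.65 and 4.28 in controls and 9.33, 9.29, 9.53 and 3.22 in restricted rats. It was high in control 1 and in restricted 1 to 3, and at or near background in the other 4 rats, so that the difference of 2.57 (SE 1.97) was not called (adjusted p = 0.800). Onecut1, a growth hormone-responsive liver factor, had 11.75, 7.24, 7.91 and 8.16 in controls and 12.06, 12.03, 12.61 and 8.24 in restricted rats, with the same 4 rats high. The liver factor Foxa2 (9.49, 7.63, 7.46 and 7.88 in controls and 10.22, 10.03, 10.23 and 7.92 in restricted rats), the stress gene Gadd45g (10.57, 5.42, 7.22 and 6.20 in controls and 10.42, 9.41, 10.71 and 3.38 in restricted rats) and the growth factor-responsive Myc (7.88, 3.66, 5.43 and 4.12 in controls and 8.53, 6.93, 8.91 and 4.15 in restricted rats) were also highest in these 4 rats. Bcl6, a repressor that growth hormone lowers, had 9.19, 9.57, 8.69 and 8.47 in controls and 5.08, 6.78, 6.74 and 9.15 in restricted rats: restricted 4 was among the controls and the other restricted rats below all of them. Nr0b2, the bile acid-induced repressor SHP, had 5.94, 10.70, 9.94 and 10.57 in controls and 8.45, 8.56, 8.65 and 10.26 in restricted rats, with control 1 the lowest rat. The zinc finger gene Zfp354a (8.55, 10.96, 10.48 and 10.52 in controls and 7.62, 8.36, 7.50 and 10.57 in restricted rats) and the aryl hydrocarbon receptor Ahr (6.23, 7.59, 7.43 and 6.88 in controls and 6.21, 6.34, 5.81 and 7.07 in restricted rats) were likewise low in control 1 and restricted 1 to 3. None of these genes was called. Onecut1, Foxa2, Bcl6, Zfp354a and Ahr are shown in the plot beside genes chosen by their SD, and were picked after their values were seen. The likeness of the split therefore holds for the genes shown only. Hamp, Noct and Cyp1a1 are not in the plot. Among controls Hamp stood apart in control 2, at 3.49, and Noct in control 1, at 3.27.

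**Figure D4:**
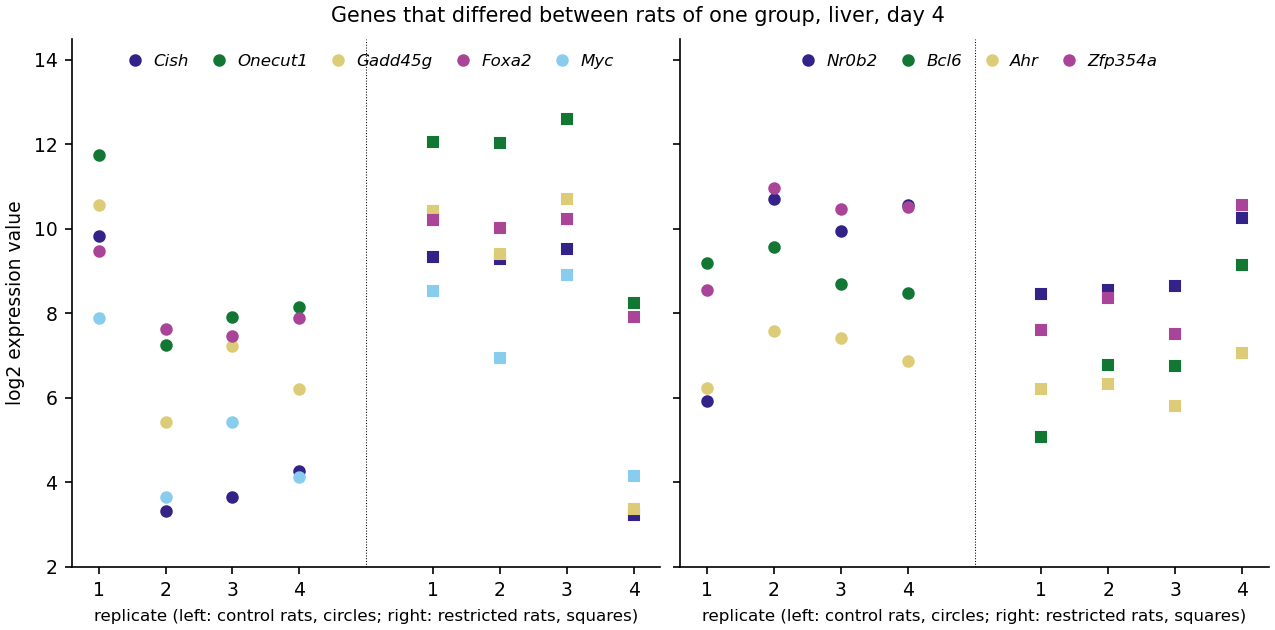
Log2 expression (vertical axis) of 9 genes in each rat, by replicate number, controls as circles left of the dotted line and restricted rats as squares right of it. In the left panel control 1 and restricted 1 to 3 are high and restricted 4 lies with controls 2 to 4, and in the right panel the order is largely turned round.

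Other genes among the 20 largest changes in either direction belong to no pathway described so far. Rab30, a small GTPase of the Golgi, had 3.30, 3.30, 3.11 and 3.83 in controls and 7.12, 7.27, 7.83 and 6.27 in restricted rats and rose by 3.74 (SE 0.32, adjusted p = 0.00137), or 2.47 as the mean over its probe sets. Nat8, an N-acetyltransferase, had 8.53, 8.66, 8.10 and 8.05 in controls and 10.89, 11.01, 10.99 and 10.58 in restricted rats, with no overlap, and rose by 2.53 (SE 0.17). Slc16a10, which carries thyroid hormone and aromatic amino acids, rose by 2.42 (SE 0.30) and the laminin chain Lama3 by 2.46 (SE 0.26). Of the falls, Inhba, which codes the beta A subunit of activin, had 9.26, 8.69, 8.34 and 8.76 in controls and 4.10, 2.80, 3.25 and 4.87 in restricted rats and fell by 5.01 (SE 0.45, adjusted p = 0.00150), -2.51 as the mean over its probe sets. The beta-tubulin Tubb2a had 11.21, 11.79, 11.72 and 12.23 in controls and 7.89, 8.08, 8.23 and 8.60 in restricted rats and fell by 3.54 (SE 0.24, adjusted p = 0.000521). The phosphate cotransporter Slc34a2 fell by 3.57 (SE 0.53), the potassium channel Kcnj15 by 4.14 (SE 0.45), -2.59 as the mean over its probe sets, and the phospholipase Ddhd1 by 2.77 (SE 0.40). Sgk1 and Ccnd1 lie outside the 20 largest falls. Of 15 glucocorticoid response genes 1 fell and 0 rose, and of 27 cell cycle genes 1 fell and 1 rose. Sgk1, a kinase that glucocorticoids and insulin regulate, had 10.42, 10.10, 11.08 and 11.24 in controls and 8.40, 8.60, 8.47 and 8.71 in restricted rats. It fell by 2.17 (SE 0.25, adjusted p = 0.00405), and the cyclin Ccnd1 fell by 2.22 (SE 0.35).

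The series also holds a 10-day regimen of liver with 5 restricted rats and 5 controls of its own, whose daily portion shrank from 16 g at first to 1 g at the end. Whether the response at day 4 differed from it was tested as the difference of the 2 effects in 1 limma fit of 18 arrays. These rats had the strain, sex, age, oil and light cycle of the day 4 rats. The sets were preprocessed apart, so only differences within a set are compared. Effects differed in 139 genes (0.978%) and in 203 of 31042 probe sets (0.654%), 117 upwards and 86 downwards from day 4 to day 10. Of the 1732 probe sets called at day 4, 59 were among them, and 1671 had the same sign at day 10.

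Some genes that were not called at day 4 had large effects at day 10. Usp2, a deubiquitinase with a daily rhythm, had 6.48, 9.33, 8.49 and 8.92 in day 4 controls and 8.96, 8.92, 8.70 and 9.66 in day 4 restricted rats. At day 10 its controls lay between 3.24 and 3.53 and its restricted rats between 9.39 and 10.74. Usp2 overlapped between the diets at day 4 only, and differed by 0.75 between diets at day 4 and by 6.71 at day 10 (difference of effects 5.96, SE 0.62, adjusted p = 0.000548). The steroid hydroxylase Cyp17a1 had effects of 1.21 and 5.67 (4.45, SE 0.66, adjusted p = 0.00655). Downwards, Stac3 had -0.16 and -5.37 (-5.22, SE 0.96, adjusted p = 0.0214), and the collagen cross-linking enzyme Lox -0.74 and -4.49 (-3.75, SE 0.49, adjusted p = 0.00400). Slc1a4, an amino acid transporter, was at background in all day 4 arrays, so that a fall could not have been seen there, and its effect was 0.05, against -2.51 at day 10 (-2.56, SE 0.22, adjusted p = 0.000149). Akr1b7 (0.10 and 4.19) and Akr1c3 (-0.69 and -4.26), aldo-keto reductases of steroid metabolism, differed in opposite directions.

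Other genes had mean effects of opposite sign, where the test was of the difference of the effects and not of each sign. Lpin1 had 10.03, 11.13, 10.25 and 11.11 in day 4 controls and 8.63, 9.29, 8.33 and 9.59 in day 4 restricted rats. At day 10 it had 9.12, 8.85, 9.35, 8.51 and 8.28 in controls and 10.32, 10.07, 10.84, 11.34 and 13.16 in restricted rats. Lpin1 fell at day 4 (-1.67) and was at 2.32 at day 10 (4.00, SE 0.72, adjusted p = 0.0203). Tsku, a secreted liver protein, had -1.80 and 1.99 (3.79, SE 0.75, adjusted p = 0.0316), and Zfp354a -1.61 and 4.20 (5.81, SE 0.81, adjusted p = 0.00516). Sult1c2, a sulfotransferase, had 2.08 and -0.79 (-2.88, SE 0.57, adjusted p = 0.0327), and the arrestin Arrdc3 0.54 and -2.32 (-2.85, SE 0.41, adjusted p = 0.00535). The diets overlapped at day 4 for Zfp354a and Arrdc3, and at day 10 for Tsku and Sult1c2. For these genes a reversal of sign is therefore not shown. The control levels of Lpin1 were 10.63 ± 0.57 in the day 4 set and 8.82 ± 0.44 in the day 10 set (SD, n = 4 and 5), and those of Usp2 8.31 ± 1.26 and 3.33 ± 0.12. The part of these control levels in the differences was not tested. Without single arrays the calls of Akr1b7 (8 of 18 arrays, highest adjusted p = 0.0654), Tsku (10, 0.0796) and Sult1c2 (10, 0.0830) were lost, and those of Lpin1 (0.0535) and Stac3 (0.0557) without day 4 control 4 or restricted 1.

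**Figure D5:**
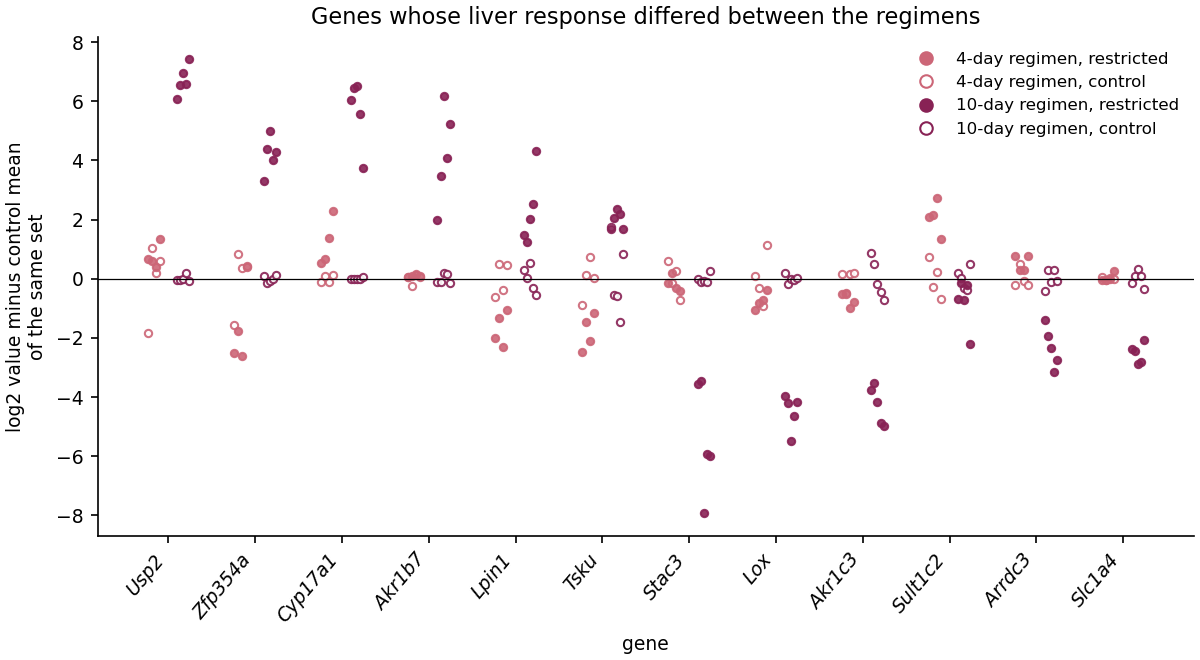
Log2 value minus the control mean of the same set (vertical axis) of 12 genes whose effect differed between the regimens, for the 4-day regimen (light red, 4 rats a group) and the 10-day regimen (dark red, 5 rats a group), with restricted rats as filled and controls as open points. Usp2 reaches 6.71 on average at day 10 against 0.75 at day 4.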

How the data were processed

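Total RNA of liver from 4 restricted and 4 control rats had been hybridised to Affymetrix rat arrays, 1 array per rat. The deposited values were on a log2 scale and preprocessed by the authors in 3 sets, of which the day 4 liver arrays are 1, per the labels. R 2.4.1, affy 1.12.2, RMA and GCRMA 2.6.0 are named in the submitters' processing notes, and which of the methods made these values is not given in the sources used here. The signal over background and the number of arrays limit the precision.

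Groups were taken from the labels. The deposited log2 values of 31042 probe sets, with 57 array control probe sets left out, were used without further normalisation. A single gene symbol was given for 20826 probe sets by the platform annotation, updated through RefSeq, several for 436 and none for 9780, and only the first kind was named. Of the listed genes 988 of 1103 were measured. Differences were tested with limma 3.58.1 (lmFit and eBayes, R 4.3.3) and Benjamini-Hochberg adjustment at 0.05, on the 8 arrays alone, and for the regimens on 18 liver arrays with the difference of effects as the contrast. Simulated data had independent normal noise and known changes in 200 probe sets, all with a mean of at least 5. Of changes of 0.5, 1 and 2 on the log2 scale 45.8%, 79.3% and 96.2% were called, with 9.1 false calls on average. These rates do not hold for dimmer probe sets. The data gave 1732 calls against 200 planted changes, and the Benjamini-Hochberg cut-off depends on the number of changes, so the rates do not carry over to the data.

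Named were the 20 largest rises and falls among called genes whose arrays did not overlap, the 4 largest called members of a list (2 members where none was called), 6 genes of the largest SD in each diet at a mean of at least 5, the 6 largest called regimen differences in each direction, and a set of regulators. Acaca, Tkt, Slc25a1, Taldo1, Fads1, Crat, Pgk1, Pgam1, Eno1, Pdk2, Pdk4, Bckdha, Cyp7a1, Dnaja1, Hspa1a, Hspb1, C1qb, Ghr, Dbp, Alb, Onecut1, Foxa2, Bcl6 and Ahr lie outside this rule and were chosen after their values were seen. Members and lists were chosen with earlier results of these data known, so list counts are descriptions. Some listed genes are not reported here.

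Alternatives were the replicate number as a block, a filter on dim probe sets, a trended or robust variance prior, quantile normalisation, centring of arrays, a fit of all 18 liver arrays, the mean over a gene's probe sets, and each array left out in turn. The scan day of the day 10 arrays as a block, and differences within replicates 1 and 2 and within replicates 3 and 4, were added after the data were seen. Replicate numbers were not taken as pairs, since the labels do not tie them to a litter, batch or day and same-numbered rats did not deviate together. Figures were drawn with matplotlib 3.10.9.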

Additional observations from a re-analysis of the deposited data

Results flagged for a closer look

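In 32 of 462 groups of 4 arrays among the named genes, 1 array stood apart from the other 3 by more than Dixon's 95% critical value, where chance gives about 5 percent of groups. The share was not far above that level. The named genes include some chosen for a large SD within a diet, a choice that favours such groups. Restricted 4 accounted for 10 of these and control 1 for 8, followed by control 2 with 5, restricted 3 with 3, control 4 and restricted 1 with 2 each, and restricted 2 and control 3 with 1 each.

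Restricted 4 stood below the other restricted rats in Fabp5 (4.31), Cyp4a8 (6.11), Suclg1 of the citric acid cycle (11.61), Slc43a1 (9.94), Kmo (11.39), Igfbp2 (9.45) and Cish (3.22). It stood above them in Shmt2 (10.97), Nr0b2 (10.26) and Nr1h3 (11.14). Control 1 stood above the other controls in Irs2 (7.32), Cdkn1b, a cell cycle inhibitor (9.04), and Cish (9.83). It stood below them in Pdhb (12.03), Hsph1 (8.07), Urod of haem synthesis (9.66), Nr0b2 (5.94) and Noct, a deadenylase with a daily rhythm (3.27, against 6.83 to 7.53). For Cish and Nr0b2, control 1 lay nearer to restricted 1 to 3 than to the other controls, and restricted 4 lay nearer to controls 2 to 4 than to the other restricted rats.

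Control 2 carried more of the red blood cell transcripts, with Alas2 at 8.97 against 5.56 to 5.95 and Hbb at 14.27 against 11.94 to 12.33 in the other controls. In the same rat S100a9, a neutrophil gene, was at 3.16, which is at background. Slc25a15 was at 12.13 in this rat, and Hamp, the iron hormone hepcidin, at 3.49 against 11.37 to 12.17 in the other controls. The part of blood content in these values was not tested.

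The remaining cases were single values. Restricted 3 was low in Mid1ip1 (9.58), Lpin2 (8.94) and Cyp2c11 (13.83), restricted 1 was high in Proc (13.03) and Col6a3 (5.16), and restricted 2 was high in Cyp3a23-3a1 (14.02). Control 4 was low in Kmo (10.43) and high in Ccnd1 (9.33), and control 3 was high in Lipe (2.76), which is at background.

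Between the regimens, the effect at day 10 exceeded that at day 4 by 5.96 for Usp2, 5.81 for Zfp354a, 4.45 for Cyp17a1, 4.10 for Akr1b7, 4.00 for Lpin1 and 3.79 for Tsku. It lay below that at day 4 for Stac3 (-5.22), Lox (-3.75), Akr1c3 (-3.57), Sult1c2 (-2.88), Arrdc3 (-2.85) and Slc1a4 (-2.56). Each of these 12 differences passed limma's test of the difference itself. Slc1a4 was at background in all day 4 rats, where a fall could not have been seen, and the part of this level in its difference was not tested.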

How the results depend on the processing

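Of 1732 probe sets called at day 4, 912 rose and 820 fell. With the replicate block 524 rose and 463 fell, 106 and 128 of them by at least 1 in place of 158 and 220, and 821 calls were shared, 47.4% of the calls without the block. Among 196 named genes called, 89 were not called under the block, Nsdhl and Dhcr7 among them, and of the interferon list only Psmb8 was. Same-numbered rats did not deviate together (r = 0.21, -0.11, -0.14 and 0.14). With 1 array left out the rises ranged from 583 to 920 and the falls from 508 to 824, both lowest without restricted 1 and highest without restricted 4, and those of at least 1 from 118 to 196 and from 166 to 247. Of the 196 named called genes 131 were called in each of these 8 fits. Centring the arrays ended 30 of the 196 calls, quantile normalisation 23, the fit of 18 arrays 14, the robust prior 6 and the trended prior 3, and no direction turned in any alternative run. The difference between the regimens held in 203 probe sets, in 401 of those with a mean of at least 5, in 34 with the replicate block, in 159 with the scan day of the day 10 arrays as a block, and in 104 to 313 with 1 array left out. Under the replicate block Cyp17a1, Akr1b7, Lpin1, Tsku, Stac3, Sult1c2 and Arrdc3 were not called, and under the scan day block Sult1c2 was not (adjusted p = 0.0506, limma). The cause of these changes was not tested. Few probe sets near background were called, so that an uncalled dim gene says little.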

Other observations

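Of 18 iron and haem genes 3 rose and 0 fell (2 fell without control 1). Slc40a1, the iron exporter ferroportin, had 10.06, 9.99, 10.20 and 10.07 in controls and 10.63, 10.88, 10.78 and 10.49 in restricted rats and rose by 0.61 (SE 0.09). Tfr2, an iron sensor of hepatocytes, rose by 0.53 (SE 0.03) and Urod of haem synthesis by 0.49 (SE 0.07). Autophagy genes gave 5 rises and 1 fall among 22, with 2 rises without restricted 1, 2 or 3 or control 3. Bnip3, a receptor for the removal of mitochondria, had 9.01, 8.85, 8.71 and 8.73 in controls and 10.35, 10.50, 10.16 and 9.74 in restricted rats and rose by 1.36 (SE 0.16, adjusted p = 0.00437 by limma). Sqstm1, the cargo receptor p62, fell by 0.87 (SE 0.10), -0.41 as the mean over its probe sets. Among cytosolic ribosomal proteins 17 of 19 had higher means and 4 rose, by 0.15 to 0.20, but 0 to 4 rose with 1 array left out.

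Enzymes of detoxification held calls in both directions, as bright probe sets in general did. Of 24 glutathione genes and NRF2 targets 2 rose and 4 fell, or 1 rose without restricted 1, control 3 or control 4 and 2 fell without restricted 1. Gstm1, a glutathione transferase, had 13.62, 13.53, 13.44 and 13.54 in controls and 12.97, 13.13, 12.97 and 13.07 in restricted rats and fell by 0.50 (SE 0.05), and the thioredoxin Txn1 fell by 0.36 (SE 0.03). Cyp3a23-3a1, a pregnane X receptor target, had 13.16, 12.99, 13.20 and 12.90 in controls and 13.73, 14.02, 13.69 and 13.70 in restricted rats and rose by 0.72 (SE 0.10). Cyp2e1, which fasting and ketones raise in rats, rose by 0.30 (SE 0.04), and the epoxide hydrolase Ephx1 fell by 0.67 (SE 0.10). Of secreted proteins the complement factors C6 and Mbl2 fell by 1.01 (SE 0.14) and 0.70 (SE 0.10), and the coagulation factor F5 rose by 0.67 (SE 0.06). As in all 1209 called genes, the groups of C6, Mbl2 and F5 did not overlap.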
